A study of Mus musculus with 2 samples.

Results

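Genes that sense DNA damage and repair it were followed on 2 Affymetrix 3′ expression arrays of mouse hematopoietic stem cells (HSC), the bone marrow cells from which all blood lineages arise. The set was a named list of 38 genes of damage signalling, homologous recombination, end joining, base excision, mismatch, nucleotide excision and crosslink repair. A gene was followed through probe sets whose platform annotation names that gene alone, matched by symbol or synonym. By this rule 37 of the 38 had a probe set, out of 18193 genes with such a probe set in all. The histone gene H2afx was matched as H2ax, and Rbbp8 was not analysed here. One array held RNA of HSC with the genotype SIRT6 knockout and the other RNA of wild type HSC, both from mice aged 3 months, with no treatment named. The sources used here do not give how or in which cells the Sirt6 allele was disrupted, how the HSC were sorted or whether animals were pooled. Each genotype had 1 array, so the values below compare 2 RNA samples, carry no biological error and were not tested.

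DNA damage is read by the kinases Atm and Atr, which respond to double-strand breaks and to exposed single-stranded DNA, and which mark chromatin through the histone variant H2AX and stop the cell cycle through Chek1 and Chek2. Broken ends are then either joined directly, with the Ku proteins and Lig4, or resected and copied from the sister chromatid by homologous recombination, while altered bases, bulky lesions, mispairs and crosslinks each have a pathway of their own. Quiescent HSC are known to lean on end joining, since they lack a sister chromatid. Sirt6 is a nuclear deacylase that acts on histones and is known to take part in base excision and double-strand break repair.

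The Sirt6 probe set itself read 174 for the sample labelled knockout and 124 for wild type. The labels do not say whether it lies in a deleted part, so it does not check the genotype, and every direction below rests on the labels. Values are MAS5 signals, 1 per probe set and array, with medians over 45037 probe sets of 60.7 and 60.8. A gene took the value of its brightest probe set, a floor was set at a signal of 60.5 (the median over all probe sets), and a gene above the floor on at least 1 array counted as measured. This held for 11547 genes, including all 37 repair genes with a probe set, and 36 of the 37 were above the floor on both arrays. Ratios are given as log2 of knockout over wild type, and their median over all measured genes was 0.0023. Levels of different genes cannot be compared on such arrays, only the same probe set between them.

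No repair gene differed by as much as 1.5-fold, but most read slightly lower on the array labelled knockout. Of the 37 genes, 28 had a log2 ratio below 0, against 49.5% of all measured genes. Their median was -0.11, which is a wild-type signal 1.08-fold above that of the array labelled knockout, with an interquartile range from -0.18 to -0.0028. Over all measured genes the interquartile range was -0.13 to 0.13. The values ranged from -0.41 for Trp53bp1 to 0.19 for Rad50. At a size of 1.5-fold, 0 of 37 were higher and 0 lower, where 1.71% and 2.63% of all measured genes were. At a size of 1.2-fold, 0 were higher against 10.4% of all measured genes, and 3 were lower against 11.5%. The 3 were Trp53bp1, Chek1 and Xrcc4, so the share of repair genes past either size was no larger than that of genes at large. Of these, Trp53bp1 passed 1.2-fold under all 9 alternative settings of the processing. Chek1 did not pass it without probe sets ending in _x_at or _s_at (-0.10), as the median over its probe sets (-0.19) or with a pseudocount of 1 floor (-0.26), and Xrcc4 did not under 5 of the settings, with values from -0.24 to -0.19.

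**Figure D1:**
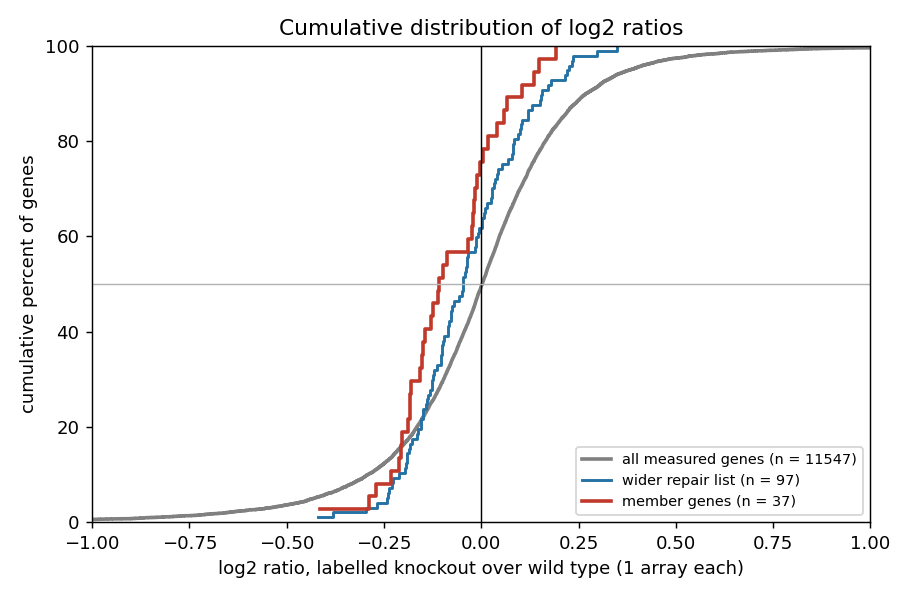
Cumulative percent of genes (vertical axis) at or below each log2 ratio of labelled knockout over wild type (horizontal axis) for all 11547 measured genes, the 97 measured genes of a wider repair list and the 37 repair genes followed here, with 1 array per genotype. The curve of the 37 genes crosses the middle line at -0.11 and ends at 0.19, while that of all genes crosses it at 0.0023.

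How far single values can be read is limited by the spread between probe sets of one gene. That SD was 0.22 on the log2 scale over the 4632 genes for which 2 or more probe sets passed the floor in both samples, and 0.14 over the 13 such repair genes. It is a technical spread within these arrays and says nothing of the spread between animals. The log2 ratios of 33 of the 37 repair genes were within 0.22 of 0, as were those of 71.7% of all measured genes. The other 4 were lower: Trp53bp1, Chek1, Xrcc4 and Mdc1. Of these, Trp53bp1 alone was beyond 0.22 under all 9 alternative settings. Mdc1 had -0.23, close to that spread. It read -0.18 under quantile normalization, -0.20 under loess, -0.15 with the floor at percentile 75 and -0.19 with a pseudocount of 1 floor.

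Promoters of these genes were mostly richer in CpG than promoters at large, which include those of noncoding genes. RefSeq promoter sequences (GRCm38.p6) were found for 30 of the 37 genes, 35 promoters in all. The upstream 250 bases held a median of 16 CpG pairs, against 6 over all 32851 promoters of the table, from 2 at one of the Mutyh promoters to 29 at Blm, and 30 of the 35 were above the median of all promoters. The bases upstream of the start are shown for the 3 genes past the 1.2-fold size and for Xpa, the highest of the genes with a promoter in the table. Each is written as the table gives it, taken to run 5′ to 3′ along the gene, and every CpG pair is in capitals. The table does not state how genes on the minus strand, which these 4 are, were written. That they follow the gene was inferred from an excess of G over C after the start that was alike on both strands, and the bases called upstream rest on this.
Trp53bp1, chr2:121271408-121271657, minus strand: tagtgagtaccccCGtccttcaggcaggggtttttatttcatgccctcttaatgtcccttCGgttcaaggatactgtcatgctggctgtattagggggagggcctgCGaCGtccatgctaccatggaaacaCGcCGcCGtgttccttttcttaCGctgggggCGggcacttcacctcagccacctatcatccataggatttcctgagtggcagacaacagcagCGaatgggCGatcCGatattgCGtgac
Chek1, chr9:36726659-36726908, minus strand: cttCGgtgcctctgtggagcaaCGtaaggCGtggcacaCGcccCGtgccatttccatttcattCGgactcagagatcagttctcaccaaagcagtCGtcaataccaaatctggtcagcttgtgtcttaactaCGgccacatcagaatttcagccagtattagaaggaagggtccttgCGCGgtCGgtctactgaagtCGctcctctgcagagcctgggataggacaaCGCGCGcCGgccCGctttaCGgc
Xrcc4, chr13:90089609-90089858, minus strand: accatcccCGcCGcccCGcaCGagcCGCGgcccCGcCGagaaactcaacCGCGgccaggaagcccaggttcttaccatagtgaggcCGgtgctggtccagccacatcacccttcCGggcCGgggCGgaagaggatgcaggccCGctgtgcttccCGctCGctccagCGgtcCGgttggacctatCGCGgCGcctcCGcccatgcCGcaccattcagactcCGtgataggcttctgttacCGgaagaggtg
Xpa, chr4:46196312-46196561, minus strand: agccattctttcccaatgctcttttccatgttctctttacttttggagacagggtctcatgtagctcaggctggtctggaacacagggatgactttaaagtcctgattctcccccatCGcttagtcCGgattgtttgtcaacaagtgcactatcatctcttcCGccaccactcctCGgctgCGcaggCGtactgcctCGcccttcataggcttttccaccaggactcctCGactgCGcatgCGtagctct
These held 13 CpG pairs for Trp53bp1, 18 CpG pairs for Chek1, 26 CpG pairs for Xrcc4 and 10 CpG pairs for Xpa. Letters tied to cell cycle regulators were looked for on both strands in the whole 300 bases, which add 50 bases after the start. The E2F letters TTTCGCGC or TTTGGCGC were in 1 of the 35 promoters, one of those of Lig1, and in 0.813% of all promoters. The letters TTTGAA, of the cell cycle homology region, were in 1, one of those of Fen1, against 17.9% of all. TTTGAA is mostly A and T while these promoters were mostly CpG-rich, and the part of base composition in this difference was not tested. None of these letters was in the windows of Trp53bp1, Chek1, Xrcc4 or Xpa.

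Damage signalling genes had a median of -0.21, the lowest of the classes, and 6 of 7 had lower signal on the array labelled knockout. Without probe sets ending in _x_at or _s_at the end joining genes were lowest, at -0.19 against -0.18 for signalling. Trp53bp1, which binds chromatin beside double-strand breaks and steers them toward end joining, read 905 against 1206 in wild type (log2 -0.41), and all signals below are given in this order. It was the lowest of the 37 genes, and all 5 of its probe sets above the floor read lower, from -0.43 to -0.08. Chek1, the effector kinase of Atr, read 512 against 625 (-0.29), with its 4 measured probe sets from -0.39 to -0.03, the last a bound because 1 of its 2 signals was under the floor and was raised to it. For the apical kinase Atm the brighter probe set read 495 against 571 (-0.21). Its second probe set read 210 against 344, a log2 ratio of -0.71. That was the one probe set of 59 with both signals over the floor that passed 1.5-fold lower, where 3.22% of all such probe sets did. Both Atm probe sets had the same direction, but they differed from each other by more than the 0.22 given above, and the size for Atm therefore depends on the probe set read.

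The other signalling genes differed less. Mdc1, the adaptor that binds phosphorylated H2AX, read 226 against 266 (-0.23). Chek2, the effector kinase of Atm, read 343 against 390 (-0.18). These were single probe sets and lower by a size close to that of Atm. H2afx, which encodes H2AX, read 1600 against 1555 (0.04). Atr read 1033 against 1040 (-0.01), with its other probe sets at -0.15 and, as a bound near the floor, 0.02. The signals of H2afx and Atr were thus nearly the same on both arrays, while those of Trp53bp1, Chek1, Mdc1, Atm and Chek2 were lower on the array labelled knockout.

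**Figure D2:**
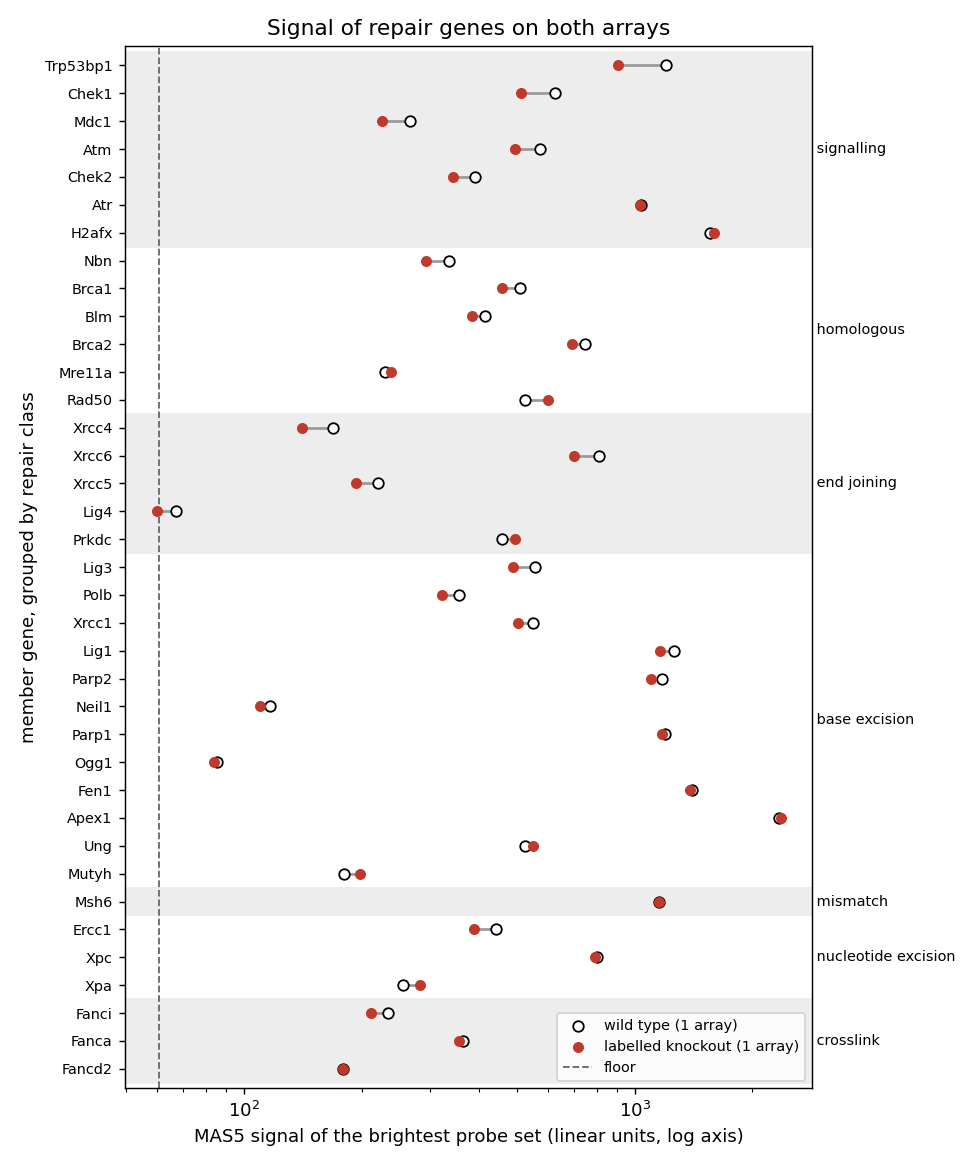
MAS5 signal (horizontal log axis, linear units) of the brightest probe set of each of the 37 repair genes, grouped by class on the vertical axis, with open circles for the wild-type array, red circles for the array labelled knockout and a dashed line at the floor of 60.5. Red circles lie left of open ones for 28 of the 37 genes, by the most for Trp53bp1 (905 against 1206), and those of Lig4 lie at the floor.

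End joining genes were similar to signalling genes, with a median of -0.19 and 4 of 5 lower. The Ku heterodimer, which holds broken ends, is encoded by Xrcc5 and Xrcc6. Xrcc6 read 700 against 811 (-0.21) and Xrcc5 193 against 220 (-0.19), so both subunits of the dimer had nearly the same ratio. Xrcc4, the scaffold of the ligase step, read 141 against 170 (-0.27), and its second probe set gave -0.20. Lig4, the ligase that Xrcc4 stabilises, read 59.7 against 67.1, which is at least 1.11-fold lower, since its signal on the array labelled knockout was under the floor. Prkdc, the kinase that Ku recruits to ends, had the opposite direction at 494 against 459 (0.11). The class was not uniform: Ku and the ligase pair were lower and the kinase was higher, all by less than 1.5-fold. Xrcc4 alone exceeded the spread of 0.22 between probe sets, so the directions of the others have little weight.

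Genes of end resection and homologous recombination went both ways, with a median of -0.11 and 4 of 6 lower. Within the complex that first binds and trims ends, Nbn, which brings Atm to breaks, read 292 against 336 (-0.20). Rad50, its ATPase, read 599 against 524 (0.19), the highest ratio of the 37 genes. Mre11a, its nuclease, read 238 against 229 (0.06). Nbn and Rad50 thus had the lowest and the highest values of the class.

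Brca1, which promotes resection, read 458 against 510 (-0.16), with its second measured probe set at -0.09. Brca2, the loader of the recombinase, read 693 against 747 (-0.11). Blm, a helicase that resolves recombination intermediates, read 383 against 414 (-0.11). These 3 genes had like ratios near the median of the whole list. None exceeded the 0.22 between probe sets over all genes, but Brca1 exceeded the 0.14 over the repair genes.

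**Figure D3:**
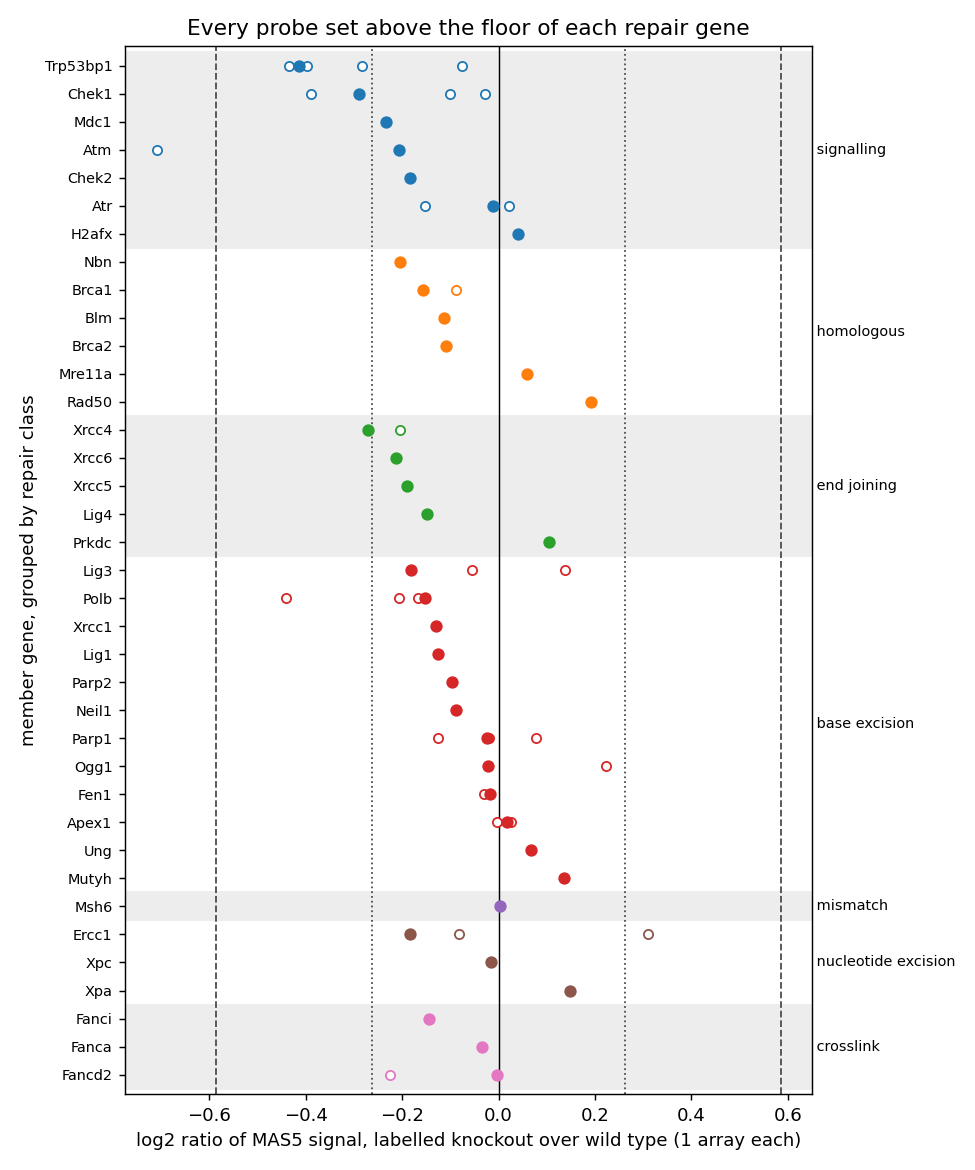
Log2 ratio of labelled knockout over wild type (horizontal axis) of every probe set above the floor on at least 1 array for each of the 37 repair genes (vertical axis, grouped by class). Filled circles are the brightest probe set, open circles the others, dotted lines mark 1.2-fold and dashed lines 1.5-fold. One open circle, the second probe set of Atm at -0.71, lies beyond a dashed line.

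Base excision and single-strand break repair was the largest class and lay close to 0. Its 12 genes had a median of -0.06, 9 were lower, and the values ran from -0.18 to 0.14, so 0 of 12 reached 1.2-fold. Among the glycosylases, which remove a damaged base, Ogg1, which acts on oxidised guanine, read 84.0 against 85.3 (-0.02) and Neil1 110 against 117 (-0.09). Mutyh, which removes adenine mispaired with oxidised guanine, read 198 against 180 (0.14). Ung, which removes uracil, read 549 against 524 (0.07). The glycosylases as a whole therefore showed no common direction, and the second probe set of Ogg1, under the floor in wild type, was at least 1.17-fold higher.

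In the later steps of the pathway all genes but Apex1 read below 0 by their brightest probe set, Fen1 and Parp1 by very little. Apex1, the endonuclease that cuts the abasic site, read 2365 against 2337 (0.02), and its 3 probe sets all lay between -0.0035 and 0.03. Polb, the polymerase that fills the gap, read 320 against 356 (-0.15). All 4 Polb probe sets were lower, from -0.44 to -0.15. Xrcc1, the scaffold of single-strand break repair, read 502 against 549 (-0.13), and its partner ligase Lig3 489 against 555 (-0.18). The other measured probe sets of Lig3 gave 0.14 and -0.05, so its direction depended on the probe set. Lig1, the ligase of replication and of long-patch repair, read 1159 against 1264 (-0.12), whereas Fen1, the flap nuclease of the same steps, read 1385 against 1403 (-0.02). The strand break sensors read 1174 against 1194 for Parp1 (-0.02) and 1100 against 1177 for Parp2 (-0.10). Parp1 had 4 measured probe sets between -0.13 and 0.08, so no direction was seen for it.

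The remaining classes were small. Msh6, a mispair sensor, was the 1 mismatch repair gene and read 1157 against 1154 (0.0034). In nucleotide excision repair, which removes bulky lesions, the lesion sensor Xpc read 792 against 801 (-0.02). The damage verifier Xpa read 283 against 255 (0.15). Ercc1, a subunit of the nuclease that cuts beside the lesion, read 388 against 441 (-0.18), but its other measured probe sets gave -0.08 and, against a wild-type signal under the floor, at least 1.24-fold higher. These 3 genes had a median of -0.02 and no shared direction. In crosslink repair, Fanci read 211 against 234 (-0.15), its partner Fancd2 179 against 179 (-0.0028) and Fanca, of the core complex that ubiquitinates both, 356 against 364 (-0.03). The second measured probe set of Fancd2 gave -0.22. All 3 were below 0, with a median of -0.03, and Fancd2 and Fanca were so close to 0 that the sign has little weight.

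Probe sets of the same gene mostly had one direction. Of the 59 repair gene probe sets with both signals over the floor, 47 had a negative log2 ratio, against 51% of all such probe sets. Of the 13 repair genes with at least 2 of them, 10 were lower on all, against 27.4% of the 4632 genes of this kind. On all of them 0 were higher, against 24.9%. The other 3 were mixed (Lig3, Parp1 and Apex1), as were 2206 of the 4632. The 10 were Atm, Atr, Trp53bp1, Chek1, Brca1, Xrcc4, Polb, Fen1, Fancd2 and Ercc1. Measured probe sets with a signal under the floor were not counted here. Such a probe set read higher for Ercc1 (at least 1.24-fold) and Atr (0.02) and lower for Chek1 (-0.03). The brightest probe sets of Atr (-0.01), Fen1 (-0.02) and Fancd2 (-0.0028) were lower by very little. For 17 of the 37 genes a single probe set was on the array. Rad50, Mre11a, Xrcc6, Ogg1, Fanca, Fanci and Xpa had more, but fewer than 2 with both signals over the floor. No such check was possible for any of these genes.

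A wider list of 112 other genes of the same pathways and of translesion synthesis lay closer to 0 than the 37 genes. Of these, 97 were measured. A negative log2 ratio was read for 60 (61.9%, against 49.5% of all measured genes) and a positive one for 37. The median of the wider list was -0.05 against -0.11 for the genes followed here. At 1.5-fold 0 were higher and 0 lower by their brightest probe set, where 1.71% and 2.63% of all measured genes were. The lowest measured probe set of Rif1 gave -1.17, where its brightest gave -0.10. For Pms2 these values were -0.80 and -0.19. The highest of any measured probe set of the list was 0.49, of Fancf. At 1.2-fold 2 were higher, against 10.4% of all measured genes: Slx4, a nuclease scaffold (0.35), and Aplf, an end joining factor (0.30). At that size 4 were lower, against 11.5% of all measured genes. They were Nudt1, which clears oxidised nucleotides (551 against 738, -0.42), Rad54b, a recombination ATPase (-0.38), the translesion polymerase Rev1 (-0.30) and Ube2t, the ubiquitin enzyme of crosslink repair (-0.27). Each of these 6 genes had 1 measured probe set.

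Class by class, the wider list did not repeat the order seen in the 37 genes. Its signalling genes had a median of -0.06 (16 measured), with Wee1, a kinase that holds cells before mitosis, at -0.19, Clspn, which couples Atr to Chek1, at -0.12, Ppm1d at 0.07 and Atrip, the partner of Atr, at 0.21. Its homologous recombination genes had a median of -0.02 (24 measured), from Rad54b and Rpa2 (-0.15) to Top3a (0.18) and Recql (0.22). Its 4 measured end joining genes had a median of -0.02 and were spread over Nhej1, a partner of Xrcc4 (-0.21), Dntt, which adds bases at joined ends in lymphocytes (-0.13), Poll (0.08) and Aplf.

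Its base excision genes had a median of -0.07 (12 measured), from Nudt1 and Parp3 (-0.18) to Parg, which removes poly-ADP-ribose (0.12), and Apex2 (0.16). Its 4 measured mismatch genes had a median of -0.11, with Mlh3 at -0.24, Pms2 at -0.19, Pms1 at -0.04 and Msh3 at 0.24. The second measured probe set of Msh3 gave -0.03. Its nucleotide excision genes had a median of -0.05 (15 measured), with Gtf2h3 (-0.24) and Ddb2, a sensor of ultraviolet lesions (-0.20), lowest and Rad23b (0.13) and Xab2 (0.23) highest. Its crosslink genes had a median of -0.08 (11 measured), with Ube2t and Fancc (-0.24) lowest and Fancg (0.23) and Slx4 highest. The 3 measured probe sets of Fancc ran from -0.24 to 0.39, so its direction depended on the probe set. Its translesion genes had a median of -0.10 (11 measured), with Rev1 and Poli (-0.23) lowest and Mad2l2 (0.15) and Ube2a (0.17) highest. The second measured probe set of Ube2a gave -0.16.

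**Figure D4:**
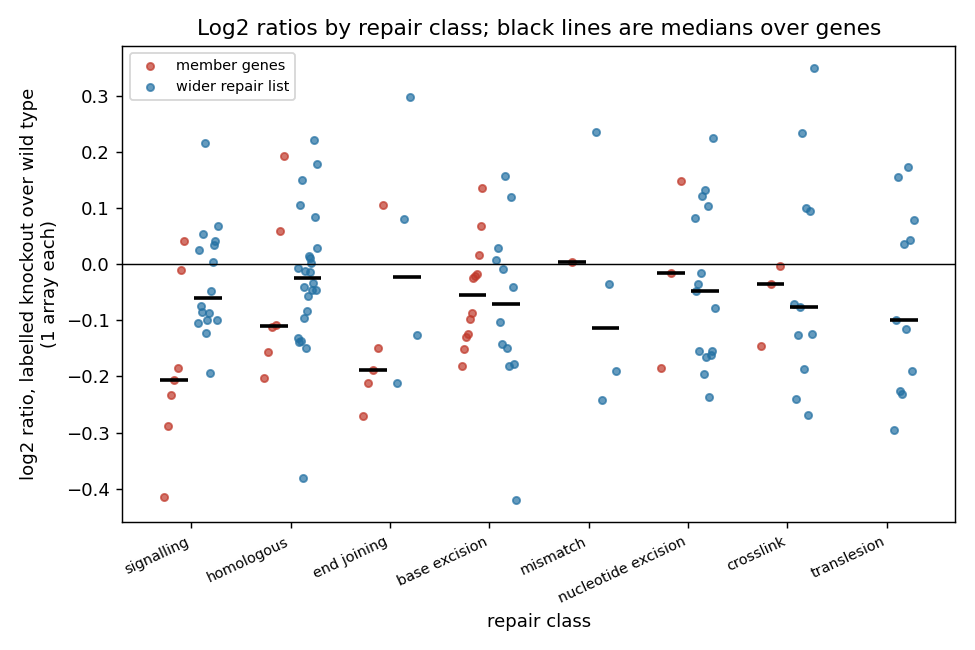
Log2 ratio of labelled knockout over wild type (vertical axis) of each measured gene by repair class (horizontal axis), red for the 37 genes followed here, blue for the 97 of the wider list, with black lines at the medians over genes. The red medians are lowest for signalling (-0.21) and end joining (-0.19), where the blue medians are -0.06 and -0.02.

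Genes of proliferation, with which many repair genes are expressed, were near equal between the arrays. The median over 12 replication genes was 0.06, with 4 below 0, and their summed signal was 1.02 times that of the wild-type array. Over 9 measured mitosis genes the median was -0.02, with 5 below 0, and the summed signal 1.01 times. Pcna, the replication clamp that also serves repair, read 6146 against 6878 (-0.16) and Tyms 66.1 against 101 (-0.62), while Mcm3 (0.18) and Rrm2 (0.22) were the highest of the replication list and Cdc20 (0.25) and Plk1 (0.31) of the mitosis list. The lowest of the mitosis list were Ccnb2 (-0.09) and Mki67 (-0.06).

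Cell type markers differed by more than the repair genes did. Of 9 measured HSC markers, 4 were at least 1.5-fold lower, with a median of -0.43 and a summed signal 0.864 times that of wild type. The brightest, Gata2 and Cd34, weigh most in that sum. The extremes were Fgd5 (-1.38), Hlf (-1.13), Cd34 (0.15) and Gata2 (0.20), whose second measured probe set gave -0.23. Of 10 granulocyte markers, 8 were at least 1.5-fold higher, with a median of 0.71, from Prtn3 (0.37) and Elane (0.56) to Ngp (0.84) and Lcn2 (1.26), and a summed signal 1.56 times that of wild type. Summed signals were 2.06 times wild type for 5 B cell markers (Vpreb1 at 1.78 and Igll1 at 1.62 highest, Cd79b at 0.15 lowest, Cd79a at least 1.45-fold higher, Ebf1 under the floor in both samples). The factor was 1.84 for 4 monocyte markers, largely through F13a1 (1273 against 428, 1.57), with Csf1r at 0.45, Ccr2 at 0.19 and Cd14 under the floor. It was 0.485 for 4 erythroid markers (Car1 -1.96, Klf1 -0.17, Epor -0.07, Hba-a1 under the floor) and 0.567 for 5 endothelial and stromal markers, of which Cdh5 and Col1a1 were under the floor on both arrays, Cxcl12 read 57.4 against 461, Kdr had -0.15 and Pecam1 0.69. Medians over the measured genes were -0.17 for erythroid and -0.15 for endothelial and stromal markers, so these sums rested largely on Car1 and Cxcl12. For 4 megakaryocyte markers the factor was 1.08, with Vwf at -0.87, Pf4 at -0.76, Itga2b at 0.88 and Gp1bb under the floor. That sum rested largely on Itga2b (1205 against 653), and the median of the measured megakaryocyte markers was -0.76. Of 6 T and NK cell markers, Nkg7 (0.20) was measured, and Cd3d, Cd3e, Cd3g, Cd4 and Ncr1 were under the floor on both arrays. In such bulk RNA, fewer cells of a type and less RNA per cell cannot be told apart, and the part of these markers in the repair gene values was not tested.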

How the data were processed

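RNA of HSC of 2 genotypes was measured on 1 array each. The authors deposited 1 linear intensity for each probe set and array, made with MAS5 per the submitters' processing notes. The sources used here give no scaling target, software version or detection call. The medians of both arrays were nearly equal, so values were used as deposited and taken to log2. Of 45037 probe sets, 34945 named 1 gene, 932 several and 9160 none, and the first kind was used. A gene took its brightest probe set, and signals under the floor (percentile 50 of the mean log2 signal) were raised to it. Genotypes took their groups from the labels. With 1 array per genotype there was no test between genotypes, the number of arrays limited precision, and genes were counted by fixed sizes of 1.5-fold and 1.2-fold. All members were named, and of the other lists the 2 highest and 2 lowest genes, of the wider repair list per class and every gene past 1.5-fold. Genes past 1.2-fold, further markers and the promoters shown were chosen after their values were seen. The members and lists were chosen with earlier results of these data known. Promoter sequences came from RefSeq. The protein sequence counts that had been planned were not made. The procedure was tested on simulated data with planted effects larger than any repair gene difference reported here, and recovery was checked at 1.5-fold. It was not tested for differences as small as those of the repair genes. The 9 alternatives were quantile, median and loess (span 0.3) normalization, omission of the floor or its placement at percentile 25 or 75, a pseudocount of 1 floor, the median over probe sets, and removal of _x_at and _s_at probe sets. Work was done with numpy 2.4.6 and pandas 2.3.3 in Python 3.11.15, loess with statsmodels 0.14.6 and plots with matplotlib 3.10.9.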

Additional observations from a re-analysis of the deposited data

How the results depend on the processing

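The median log2 ratio of the repair genes kept its sign under all 9 alternatives, between -0.11 and -0.09, and 0 genes passed 1.5-fold in either direction under any of them. The count at least 1.2-fold lower was 1 with a pseudocount of 1 floor and 1 without _x_at and _s_at probe sets, against 3 as reported. It was 2 under quantile normalization, loess, the floor at percentile 75 (where Xrcc4 was not measured) and the median over probe sets, where the genes were Atm and Trp53bp1, and 3 under the other 3 alternatives. The end joining median was -0.053 with the floor at percentile 75, which left 2 of its genes, and the median of the wider list was -0.012 after quantile normalization, where that of all genes was 0.02. Of 324 values of single repair genes under the alternatives, 323 moved by less than 0.22 and 1 by more, Atm at -0.46 as the median of its probe sets. That allowance is wide for such small ratios, and some alternatives could move few of them. Among the repair genes, omission of the floor or its placement at percentile 25 changed Lig4 alone. Genes with 1 probe set could not move with the choice of probe set. Some signs changed: Ogg1 was 0.10 as the median of its probe sets. Under quantile normalization Apex1 was -0.01 and Fancd2 0.05, and 26 of 37 genes were below 0, against 28 as reported. Sirt6 had no value with the floor at percentile 75. No paired analysis was possible because each genotype had 1 array. Signals near the floor, such as those of Lig4 and Ogg1, limit what can be read for these genes.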
